A study of Rattus norvegicus with 6 samples.

Results

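Integrins, laminins and the proteins that tie laminin networks to the rest of the basement membrane were examined in cultured heart muscle cells made to express Tbx18. The genes were taken by symbol alone, as every row of the deposited table whose symbol begins with Itga or Itgb, names a laminin chain, or is Nid1, Nid2, Hspg2, Agrn or Npnt; collagens were left out. That gave 33 of the 17089 genes in the table, namely 20 integrin subunits, 7 laminin chains, the linkers Agrn and Nid2, and 4 genes that share the name but are no subunit (Itgb1bp1, Itgb1bp2, Itgb3bp and Itgbl1). Itgav, Itga2, Itga3, Itga9, Lama2, Lama4, Lamb1, Nid1, Hspg2 and Npnt, among others, were not analysed here.

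The cells, neonatal rat ventricular myocytes, were isolated from Sprague Dawley rats aged 1 to 3 postnatal days and kept on fibronectin, itself an integrin ligand, in serum-containing medium. On the day of isolation the Tbx18 group received the adenovirus Ad-Tbx18-IRES-GFP and the GFP group received Ad-GFP, so both groups carried an adenovirus and GFP, and RNA was taken on day 4 after gene transfer. Each group had 3 libraries, and the study asked how Tbx18, a T-box protein needed to form the sinus node head in the embryo, changes the ventricular transcriptome on the way to pacemaker-like cells. Such cultures hold some non-myocytes as well, and the labels state neither whether the replicates came from separate isolations nor what promoter drove the vectors; p-values therefore measure the spread between these libraries only, which may be technical.

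Integrins are cell surface receptors built from an alpha and a beta subunit. They bind matrix proteins outside the cell and, through talin, kindlin and the Ilk complex, the actin cytoskeleton inside it. The alpha subunit largely sets the ligand: Itga6 and Itga7 products bind laminins, those of Itga1, Itga10 and Itga11 bind collagens, and those of Itga5 and Itga8 bind ligands with the RGD motif such as fibronectin and nephronectin. Laminins are trimers of an alpha, a beta and a gamma chain that form the sheet-like network of the basement membrane around each heart muscle cell, where nidogens and heparan sulfate proteoglycans such as agrin tie the network to collagen and to cells.

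Values are the authors' DESeq2-normalized counts, which scale with transcript length and so are compared between groups and not between genes. The libraries held 17074483 to 19800300 recovered reads in Tbx18 and 17460507 to 18934232 in GFP. Tbx18 itself averaged 6059 ± 157 in Tbx18 and 292 ± 22.1 in GFP (SD, n = 3 each), and every library matched its label. Markers of cardiac muscle were abundant in both groups, with 11 markers summing to 661383 to 677386 in Tbx18 and 1356396 to 1470078 in GFP; 0 of them were higher and 10 lower. The 12 fibroblast markers summed to 518116 to 602859 in Tbx18 and 241744 to 281680 in GFP, with 11 higher and 0 lower. Of 12 smooth muscle and pericyte markers 6 were higher and 3 lower, with sums of 173004 to 180081 in Tbx18 and 206017 to 220164 in GFP. Des, among those that fell, was at 41268 ± 3376 in Tbx18 and 104553 ± 16723 in GFP. It is a large part of these sums, which alone do not give the direction of the list. Of 12 endothelial markers 6 were higher and 1 lower (sums of 3477 to 3590.0 in Tbx18 and 2349 to 3719 in GFP). Of 5 tested Schwann and neural markers 3 were higher and 0 lower (298 to 351 in Tbx18 and 179.5 to 218 in GFP). The platelet markers Ppbp and Gp1bb were at 0 in every library. In such cultures fewer cells of a type and less RNA per cell cannot be told apart, and the part of these shifts in the results below was not tested.

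Of the 33 genes, 31 had a mean of at least 10 and entered a limma fit over 11230 genes, in which a gene was called at a Benjamini-Hochberg adjusted p under 0.05. Of these 31, 10 were higher in Tbx18, 12 lower and 9 did not pass the test, so that 71.0% were called against 46.0% of all genes tested. The mean was taken over all 6 libraries. Itga10, Itgb6 and Lama1, among the 10 higher, averaged 1.89, 9.30 and 3.04 in GFP and passed the filter only through their Tbx18 values. With no filter the same 10 were called higher and the same 12 lower. By direction, 22.5% of all genes tested were called higher and 23.5% lower. The families went different ways: among 19 tested integrin subunits 6 were higher and 5 lower, whereas among 6 tested laminin chains 1 was higher and 5 lower, and both linkers were higher. The median log2 fold change was 0.03 for the integrin subunits and -1.0 for the laminin chains, beside 0.005 for all genes. At 2-fold or more, 9 were called higher and 3 lower, where 8.04% of all genes tested were called higher and 4.22% lower by that much. Complete separation of the 3 Tbx18 from the 3 GFP values was seen in 22 of the 31, against 57.2% of all genes tested.

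**Figure D1:**
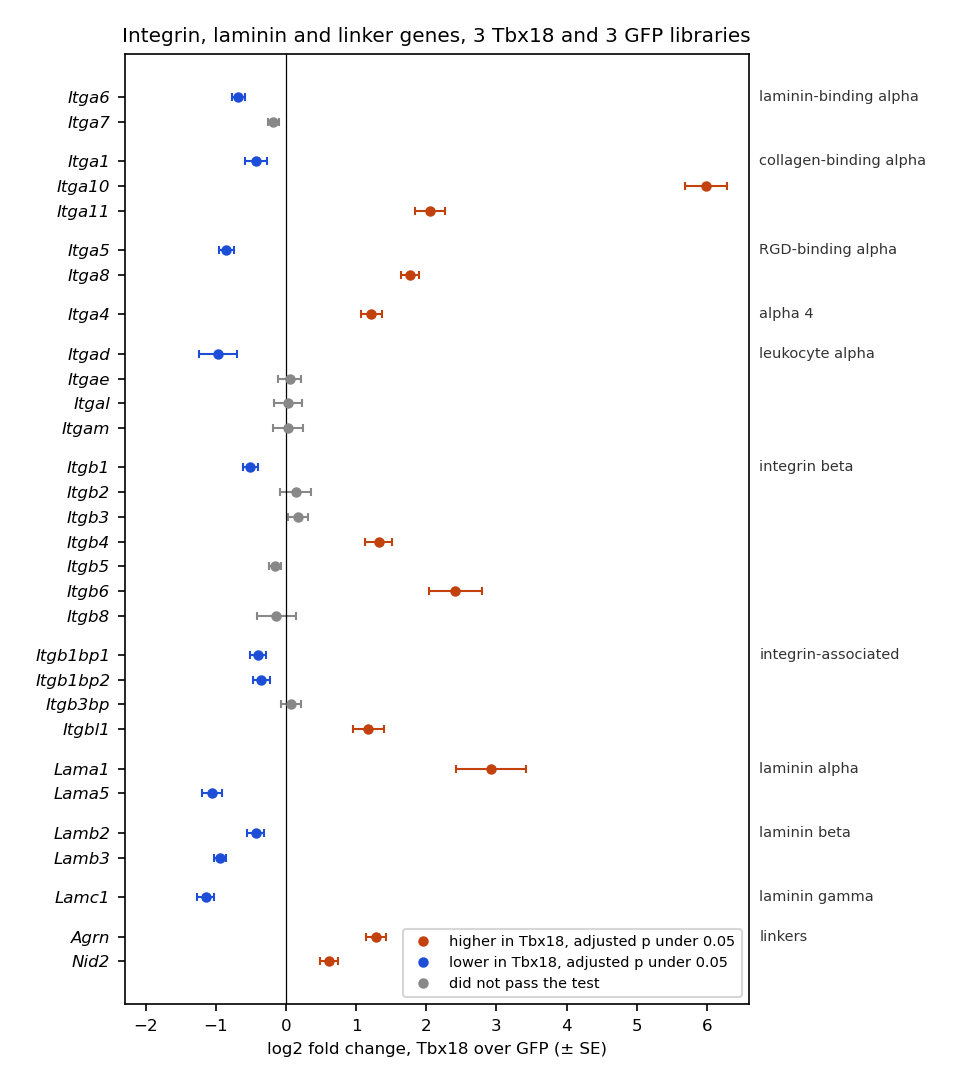
Log2 fold change of Tbx18 over GFP for 30 tested genes, each with its standard error from limma, ordered by role. Collagen-binding Itga10 and Itga11 lie far to the right, and the laminin chains Lama5, Lamb2, Lamb3 and Lamc1 lie left of 0.

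Promoter sequences are shown for Itga10, the gene with the largest rise, for Itga4, the one gene of the set whose window holds the T-box letters, and for Lamc1, which fell. RefSeq sequences of build GRCr8, running from 250 bases before to 50 after the annotated start, were matched by symbol for 23 of the 33 genes; the build used for the counts is not given in the sources used here. The letters GGTGTGA, a core that T-box factors bind, and GGAATG, the MCAT element bound by TEAD factors, were searched on both strands, neither sharing letters with the other in these windows, and are in capitals where found.
Itga10, chr2:186871461-186871760, plus strand: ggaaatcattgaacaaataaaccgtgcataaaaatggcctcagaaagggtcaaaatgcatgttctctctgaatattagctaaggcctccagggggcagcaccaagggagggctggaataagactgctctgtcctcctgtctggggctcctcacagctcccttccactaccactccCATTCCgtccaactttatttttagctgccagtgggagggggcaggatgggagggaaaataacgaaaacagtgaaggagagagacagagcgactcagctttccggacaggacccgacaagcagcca
Itga4, chr3:84569765-84570064, plus strand: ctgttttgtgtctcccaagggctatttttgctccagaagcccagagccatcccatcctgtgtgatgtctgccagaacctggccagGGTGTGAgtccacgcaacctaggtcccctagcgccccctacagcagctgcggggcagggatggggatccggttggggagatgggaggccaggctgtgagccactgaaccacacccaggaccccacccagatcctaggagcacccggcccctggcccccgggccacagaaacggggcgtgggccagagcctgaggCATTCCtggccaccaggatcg
Lamc1, chr13:68051937-68052236, minus strand: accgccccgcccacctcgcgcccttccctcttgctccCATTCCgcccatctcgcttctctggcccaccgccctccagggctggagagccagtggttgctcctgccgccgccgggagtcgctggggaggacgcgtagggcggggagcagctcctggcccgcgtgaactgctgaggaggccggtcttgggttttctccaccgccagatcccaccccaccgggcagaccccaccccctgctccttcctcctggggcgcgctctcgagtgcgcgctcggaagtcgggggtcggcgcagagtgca

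The T-box letters occurred in 1 of the 23 windows, that of Itga4 at -165 to -159 from the start, and in 3.84% of 33365 promoters of the same length. The share of the set, 4.35%, was thus near that of all promoters. The MCAT letters occurred in 6 of the 23, against 14.2% of all promoters. They lay in the windows of Itga10 (-75 to -70) and Itga4, both higher, of Itgb1, Lamc1 and Itgb1bp1, all lower, and of Itgb8, which did not pass the test. Other letters were searched too and are not in capitals. TGANTCA occurred in 0 of the 23 (7.34% of all promoters) and GGGCGG in 10 (33.1%). CANNTG occurred in 15 (72.1%) and TATAAA in 1 (14.2%). Such matches describe the letters of these windows and nothing about binding.

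The collagen-binding alpha subunits diverged. Itga10, which is best known from cartilage and pairs with the Itgb1 product, was almost unread in GFP and clearly read in every Tbx18 library, at 217, 153 and 176 normalized counts in Tbx18 and at 2.13, 1.23 and 2.30 in GFP. The rise had a log2 fold change of 5.99 (SE 0.29, limma adjusted p = 2.27e-06), which ranked 4 among the 11230 genes tested. In GFP it rested on 5 recovered reads over the group, set against 586 in Tbx18, a ratio of 95.9 after size factors with an exact 95% counting interval of 40.8 to 296, and with a pseudocount of 10 the log2 fold change was 4.00. Itga11, a collagen receptor of fibroblasts, stood at 968, 707 and 1103 in Tbx18 and at 296, 186 and 189.9 in GFP. It rose 4.13-fold, with a log2 fold change of 2.05 (SE 0.21, limma adjusted p = 6.71e-05), and its lowest Tbx18 value was above the highest GFP value.

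Itga1, the third collagen receptor subunit, did not share that rise. It was read at 903, 755 and 1066 in Tbx18 and at 1488, 1055 and 1139 in GFP, and the groups overlapped. It was called lower, with a log2 fold change of -0.43 (SE 0.15, limma adjusted p = 0.0440), but 7 of 16 alternatives ended the call, TMM scaling (adjusted p = 0.0505) and the removal of GFP replicate 1 (log2 fold change -0.29), GFP replicate 3, Tbx18 replicate 1 or Tbx18 replicate 2 among them. The adjusted p of Itga1 lay between 0.0171 and 0.421 over the alternatives.

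The subunits that recognise the RGD motif also split. Itga5, the alpha subunit of the main fibronectin receptor, was at 5513, 6376 and 6181 in Tbx18 and at 11131, 9540.1 and 11982 in GFP. It fell 1.81-fold, with a log2 fold change of -0.85 (SE 0.10, limma adjusted p = 0.000187). Itga8, found in mesenchymal and smooth muscle cells and a receptor for nephronectin, moved the other way, at 1949.6, 1569.7 and 2060.1 in Tbx18 and at 635, 510.04 and 494 in GFP. That was a 3.40-fold rise with a log2 fold change of 1.77 (SE 0.13, limma adjusted p = 1.38e-05). Itga4, the gene with T-box letters in its promoter window, binds Vcam1 and fibronectin and in the mouse is needed for the epicardium to form. It was at 386, 298 and 371 in Tbx18 and at 173, 135 and 144 in GFP, a log2 fold change of 1.22 (SE 0.15, limma adjusted p = 0.000199). None of these 3 genes had groups that overlapped.

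Laminin-binding alpha subunits were lower or did not pass the test. Itga6 was at 1396, 1359 and 1183 in Tbx18 and at 2081, 2041 and 2177 in GFP. It fell by 0.68 on the log2 scale (SE 0.09, limma adjusted p = 0.000258). Itga7, the laminin receptor subunit of mature striated muscle, was at 10461, 9988 and 10209 in Tbx18 and at 11670, 11184 and 11992 in GFP, so every Tbx18 value lay below every GFP value, yet its log2 fold change of -0.18 did not pass (limma adjusted p = 0.0791). DESeq2 on recovered reads put it just past the threshold (adjusted p = 0.0465), and with equal recovered reads its sign turned, to 0.080.

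Among beta subunits, Itgb1, the common partner of most of the alpha subunits above, was lower by a small and even margin. It was read at 54071, 52289.9 and 51306 in Tbx18 and at 74102, 75078 and 75111 in GFP, a log2 fold change of -0.51 (SE 0.10, limma adjusted p = 0.00285). Its alpha partners did not share 1 direction. Itga10, Itga11, Itga8 and Itga4 rose in the libraries in which Itgb1 fell, Itga5, Itga6 and Itga1 were called lower with it, and Itga7 did not pass. Itgb5, a partner of Itgav in the vitronectin receptor, was at 5643, 5232 and 5293 in Tbx18 and at 6622, 5724 and 5800.4 in GFP and did not pass (log2 fold change -0.16, limma adjusted p = 0.145, and 0.10 with equal recovered reads). Itgb3, the other vitronectin receptor beta subunit, averaged 272 ± 35.0 in Tbx18 and 241 ± 27.8 in GFP and did not pass, nor did Itgb8, with 59.7 ± 6.41 in Tbx18 and 68.9 ± 24.2 in GFP. Itgb3 was called higher with equal recovered reads.

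The beta subunits of epithelia rose from low values. Itgb4, which pairs with Itga6 in the hemidesmosomes of epithelia, was at 81.9, 77.9 and 82.5 in Tbx18 and at 29.8, 34.6 and 31.1 in GFP, a log2 fold change of 1.32 (SE 0.19, limma adjusted p = 0.000454). Itgb6, which with Itgav binds and activates latent TGF-beta in epithelia, was at 42.3, 48.2 and 59.7 in Tbx18 and at 14.9, 4.94 and 8.05 in GFP, a log2 fold change of 2.41 (SE 0.38, limma adjusted p = 0.000766). With a pseudocount of 10 the log2 fold change of Itgb6 was 1.66. Of 9 tested epicardial, mesothelial and epithelial markers 6 were higher and 1 lower, and the list summed to 8903 to 9748 in Tbx18 and 6511 to 7413 in GFP. That was 77.8% called beside 46.0% of all genes tested. The marker that fell was Gpm6a, at 198 ± 4.64 in Tbx18 and 313 ± 22.1 in GFP, and Wt1 and Ezr did not pass. Krt8, a keratin, averaged 2662 ± 353 in Tbx18 and 223 ± 57.2 in GFP, Epcam, an epithelial adhesion molecule, 51.4 ± 6.42 in Tbx18 and 8.60 ± 5.94 in GFP, and Cdh1, epithelial cadherin, was at 39.9 ± 7.82 in Tbx18 and at 0 in all GFP libraries. The part of such cells in the rise of Itgb4 and Itgb6 was not tested.

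Integrins of white blood cells were read at low values and mostly did not pass. Itgal averaged 44.7 ± 3.66 in Tbx18 and 43.8 ± 2.74 in GFP, Itgam 71.1 ± 15.4 in Tbx18 and 69.1 ± 8.67 in GFP, and their common partner Itgb2 134 ± 7.73 in Tbx18 and 127 ± 41.7 in GFP. Itgae, which marks lymphocytes held in epithelia, averaged 163 ± 17.4 in Tbx18 and 158 ± 23.3 in GFP. Itgad, another partner of Itgb2, was the exception, at 14.7, 17.4 and 21.1 in Tbx18 and at 41.5, 33.3 and 32.2 in GFP. It was called lower by a log2 fold change of -0.97 (limma adjusted p = 0.0144), a call lost without Tbx18 replicate 1 (adjusted p = 0.0646; 0.0106 to 0.0646 over its alternatives). Itgb7, the partner of Itgae, held 3 to 8 recovered reads per Tbx18 library and 0 to 5 per GFP library and was not tested. Of 11 tested leukocyte and macrophage markers 2 were higher and 0 lower, and the list summed to 1601 to 2230 in Tbx18 and 1307 to 2385 in GFP. That was 18.2% called beside 46.0% of all genes tested.

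Of the genes that carry an integrin name without being a subunit, Itgbl1, a secreted protein with integrin-like repeats, rose 2.21-fold, at 423, 355 and 469.6 in Tbx18 and at 199.99, 237 and 128 in GFP (log2 fold change 1.18, SE 0.21, limma adjusted p = 0.00172). Itgb1bp2, melusin, a muscle protein that binds the tail of the Itgb1 product, averaged 1803 ± 206 in Tbx18 and 2314 ± 334 in GFP and was called lower by a log2 fold change of -0.36 (limma adjusted p = 0.0384) although the groups overlapped. Itgb1bp1, which binds the same tail and holds the receptor inactive, averaged 933 ± 17.3 in Tbx18 and 1244 ± 201 in GFP, a log2 fold change of -0.40 (limma adjusted p = 0.0199). Both calls depended on the setting. That of Itgb1bp2 was lost with upper-quartile scaling, with equal recovered reads, and when GFP replicate 2, Tbx18 replicate 1 or Tbx18 replicate 3 was left out (adjusted p from 0.00766 to 0.538), and that of Itgb1bp1 without GFP replicate 2, GFP replicate 3 or any Tbx18 library and, at an adjusted p of 0.293, with equal recovered reads (0.000469 at the lowest). Itgb3bp, a centromere protein, did not pass, with 245 ± 22.6 in Tbx18 and 235 ± 34.1 in GFP.

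**Figure D2:**
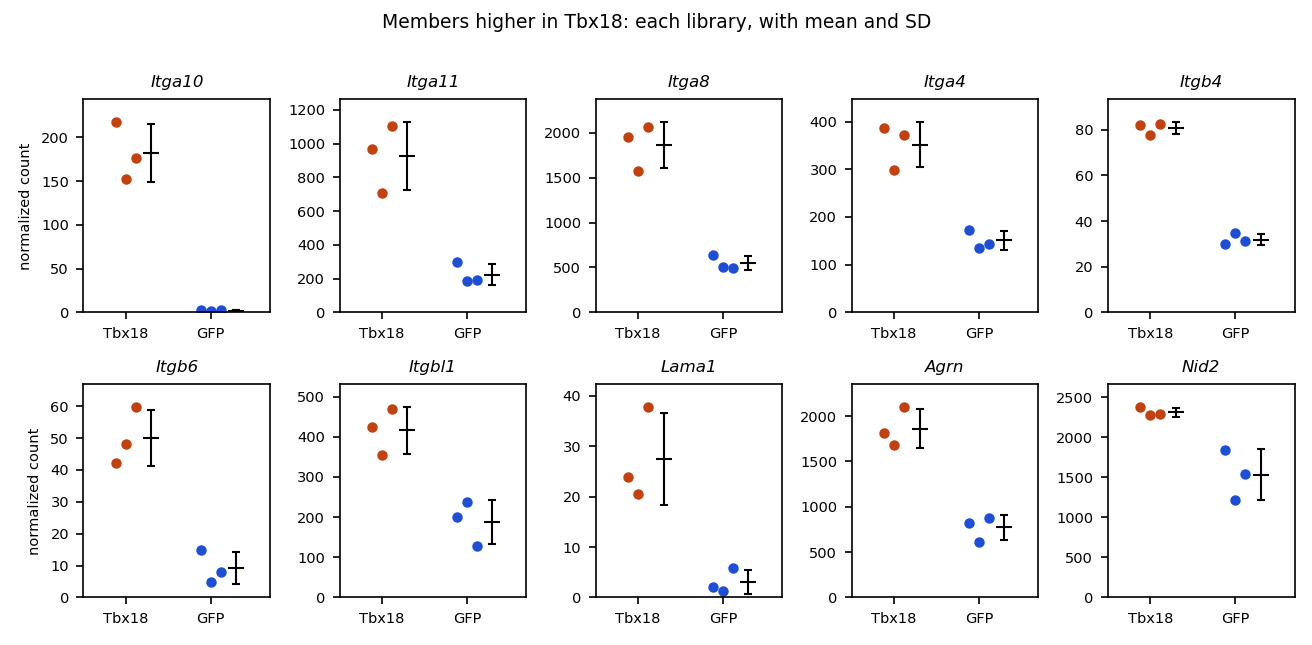
Normalized counts of the 10 genes called higher, by library (points, Tbx18 left of GFP), with the mean and SD of each group beside them. In each panel all 3 Tbx18 points lie above all 3 GFP points, and Itga10 is close to 0 in GFP.

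Of the 6 tested laminin chains 5 were lower and 1, Lama1, was higher. Lama2, Lama4 and Lamb1 are not in that count. Lamc1, the gamma chain of most laminins, was at 22813, 21882 and 23595 in Tbx18 and at 50731, 43434 and 57925 in GFP. It fell 2.23-fold, with a log2 fold change of -1.15 (SE 0.12, limma adjusted p = 7.84e-05). Lamb3, a beta chain of epithelial laminin, fell 1.92-fold, at 4439.5, 4062 and 4693 in Tbx18 and at 8686, 8832 and 7799 in GFP (log2 fold change -0.94, SE 0.09, limma adjusted p = 4.76e-05). It fell in the libraries in which Itgb4, an integrin subunit of epithelial basement membranes, rose.

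Lama5, the alpha chain of widespread adult laminins, stood at 3547, 3670.1 and 4580.1 in Tbx18 and at 8974, 6589.8 and 9127 in GFP, a 2.09-fold fall with a log2 fold change of -1.06 (SE 0.14, limma adjusted p = 0.000312). Lamb2, a beta chain of muscle and synaptic laminins, was at 7236, 6637 and 7767 in Tbx18 and at 9687, 8208 and 11558 in GFP, a log2 fold change of -0.43 (SE 0.12, limma adjusted p = 0.0177). The groups did not overlap for Lamc1, Lamb3, Lama5 or Lamb2. Of these calls only that of Lamb2 depended on the setting: it was lost with equal recovered reads, and when Tbx18 replicate 1, GFP replicate 3 or Tbx18 replicate 2 was left out (adjusted p from 0.00229 to 0.296). Lama1, an alpha chain of embryonic laminin, was the exception, at 23.9, 20.5 and 37.7 in Tbx18 and at 2.13, 1.23 and 5.75 in GFP. Its rise, a log2 fold change of 2.93 (SE 0.50, limma adjusted p = 0.00113), rested on 8 recovered reads in GFP against 89 in Tbx18, a ratio of 9.10 with an exact counting interval of 4.42 to 21.7, and was 1.51 with a pseudocount of 10. Lamc3 held 22 reads over the Tbx18 libraries and 10 over the GFP libraries, a ratio of 1.80 with an interval of 0.818 to 4.26, and was not tested.

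**Figure D3:**
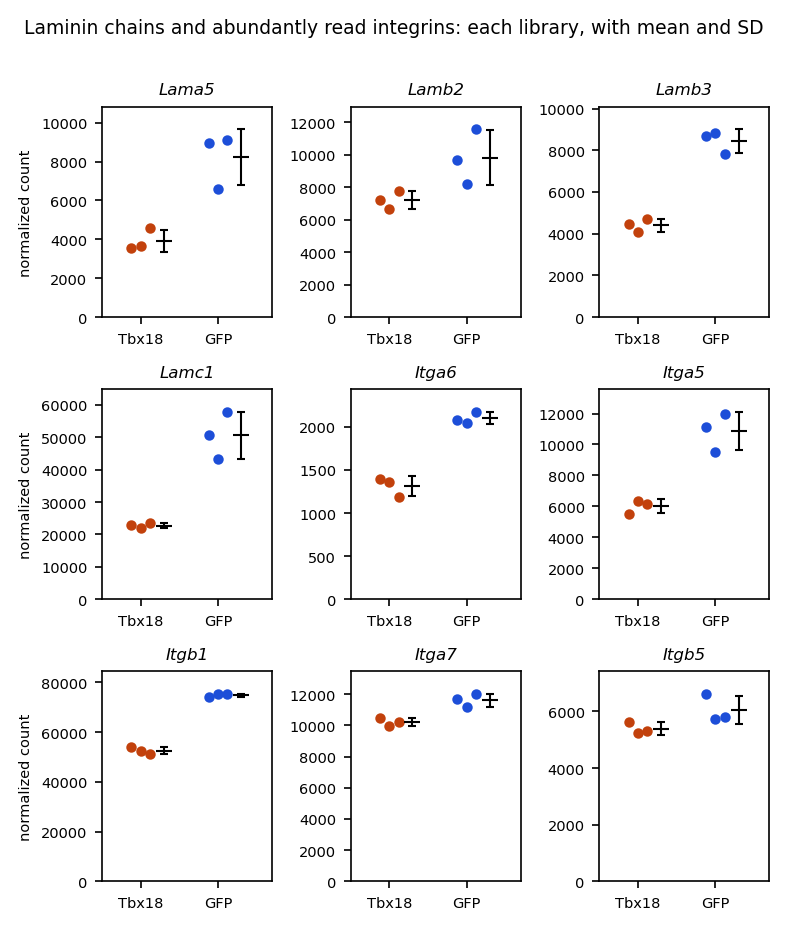
Normalized counts by library (points, Tbx18 left of GFP; axes start at 0) with group means and SD, for the laminin chains Lama5, Lamb2, Lamb3 and Lamc1 and for Itga6, Itga5, Itgb1, Itga7 and Itgb5. The laminin groups are fully apart, most widely for Lamc1, while Itga7 and Itgb5 differ by little.

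Both linkers rose. Agrn, a heparan sulfate proteoglycan that binds laminin and dystroglycan, was at 1809.7, 1676 and 2098 in Tbx18 and at 820.2, 615 and 881 in GFP. It rose 2.41-fold, with a log2 fold change of 1.28 (SE 0.14, limma adjusted p = 0.000106). Nid2, nidogen-2, which links laminin to collagen IV, was at 2376, 2274 and 2290.1 in Tbx18 and at 1844, 1218 and 1544 in GFP. Its rise was 1.51-fold, with a log2 fold change of 0.61 (SE 0.13, limma adjusted p = 0.00453), and the 3 GFP libraries were farther apart than the 3 Tbx18 libraries.

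Direction went with how many reads a gene had. The 10 genes called higher had mean normalized counts of 15.2 to 1924 with a median of 277, and the 12 called lower had means of 26.7 to 63660 with a median of 5097. The whole table leaned the same way, with 34.2% of genes called higher and 7.85% lower where the mean was 10 to 100, and 11.6% higher and 47.3% lower where it was at least 10000. Between 1000 and 10000, 3 of 13 members were higher and 9 lower, beside 15.5% and 36.6% of all genes at that level. A read count depends on transcript length, so these bins order reads and not transcripts. The means also include the Tbx18 values, through which alone Itga10, Itgb6 and Lama1 passed the filter.

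**Figure D4:**
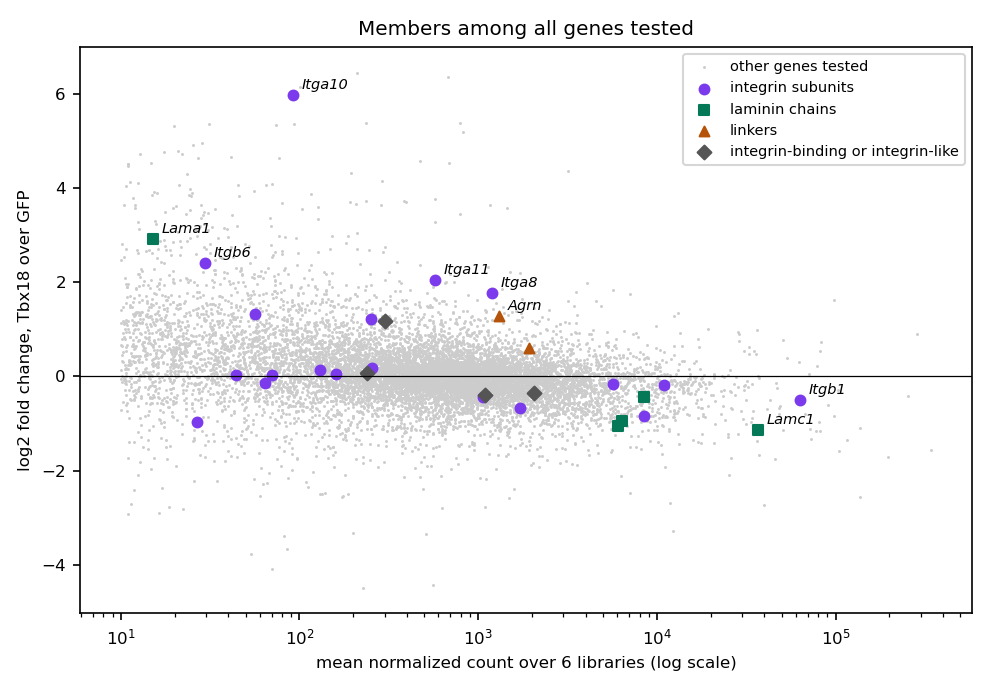
Log2 fold change of Tbx18 over GFP against the mean normalized count over the 6 libraries (log scale) for the genes shown, with integrin subunits, laminin chains, linkers and integrin-associated genes marked. Itga10 stands near the top edge, and the abundantly read laminin chains lie below 0.

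Most genes that work with integrins inside the cell did not pass the test. Of 27 tested genes of the adhesion machinery (talin, vinculin, kindlin, the Ilk complex and focal adhesion adaptors) 4 were higher, 3 lower and 20 did not pass, 25.9% called against 46.0% of all genes, with a median log2 fold change of 0.03. Flna, filamin A, an actin cross-linker that binds integrin tails, rose to 37051 ± 2997 in Tbx18, against 19538 ± 3863 in GFP (limma adjusted p = 0.00055), and the kinase gene Src to 686 ± 64.3 in Tbx18, against 370.1 ± 22.6 in GFP. The 3 that fell were Parvb and Lims2, which encode parvin and PINCH proteins of the Ilk complex, at 1763 ± 26.2 and 4189 ± 161 in Tbx18 against 2872 ± 93.3 and 6752 ± 354 in GFP, and Fermt2, kindlin-2, at 6924 ± 157 in Tbx18 and 8632 ± 217 in GFP. With equal recovered reads 11 of these genes were higher, without GFP replicate 1 there were 8 and without Tbx18 replicate 1 there were 2.

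Among integrin ligands more rose than fell. Of 19 tested integrin ligands 10 were higher and 4 lower, where 22.5% of all genes tested were higher and 23.5% lower, so the share lower was near that of all genes. The median log2 fold change of the ligands was 0.55. Postn, periostin, averaged 18878 ± 1375 in Tbx18 and 7488 ± 1492 in GFP, Vcam1, the Itga4 ligand, 535 ± 46.6 in Tbx18 and 214 ± 9.30 in GFP, and Fbn1, fibrillin-1, 17465 ± 2987 in Tbx18 and 7386 ± 2667 in GFP. The 4 that fell were Ctgf, Spp1, Mfge8 and Tnc, with log2 fold changes of -1.11, -0.81, -0.33 and -0.32. Fn1, fibronectin, a gene singled out after its values were seen because it is the ligand of the Itga5 receptor, averaged 96778 ± 12813 in Tbx18 and 66667 ± 12962 in GFP (log2 fold change 0.55, limma adjusted p = 0.0199), opposite in direction to Itga5. Of the ligands, 1 was lower without Tbx18 replicate 1 or with equal recovered reads, and 2 without Tbx18 replicate 2, without Tbx18 replicate 3 or with upper-quartile scaling.

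Other proteins of the basement membrane were mostly higher. Of 18 tested, 12 rose and 3 fell, 83.3% called beside 46.0% of all genes, with a median log2 fold change of 0.76, in contrast to the -1.0 of the laminin chains; the difference between these lists was not tested. Fras1 and Frem1, which in the mouse belong to a complex that holds nephronectin in the basement membrane, were at 332 ± 78.8 and 211 ± 36.8 in Tbx18 and at 40.8 ± 10.8 and 69.7 ± 14.5 in GFP. Frem2, in the same list, did not pass, at 649 ± 56.9 in Tbx18 and 581 ± 234 in GFP. Smoc2, a calcium-binding matrix protein, was at 19.0 ± 2.73 in Tbx18 and 92.4 ± 32.2 in GFP, and the others that fell were Vwa1, a matrix protein, and Ntn4, a netrin that binds laminin, with log2 fold changes of -0.76 and -0.58. This list holds Sparc and Fn1, which fibroblasts secrete in quantity, and the fibroblast markers given above were higher in the same libraries; their part was not tested.

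Laminin and basement membrane receptors other than integrins, a list that also holds Ddr1, Ddr2, Cd44, Dmd and Utrn, were called about as often as all genes tested. Of 17 tested, 4 were higher and 4 lower, 47.1% called beside 46.0% of all genes, with a median log2 fold change of 0.02. The syndecans, cell surface heparan sulfate proteoglycans, split. Sdc2 and Sdc3 rose, averaging 3197 ± 202 and 2610.1 ± 172 in Tbx18 and 1595 ± 135 and 1441 ± 344 in GFP. Sdc4 was lower, at 2270 ± 210 in Tbx18 and 3249 ± 445 in GFP, and Sdc1 did not pass. Sdc4 and Sdc1 are named as syndecans and not for the size of their change. Gpc1, a glypican, averaged 5983 ± 236 in Tbx18 and 13316 ± 1976 in GFP. Of 14 tested genes that build the laminin-binding sugar of dystroglycan 4 were higher, Gmppb the furthest with a log2 fold change of 0.69, and 4 lower, Pomgnt1 the furthest with -0.50; that was 57.1% called, near the 46.0% of all genes. With equal recovered reads 7 receptors were higher and 1 lower, and 0 of the glycosylation genes were lower. When Tbx18 replicate 1, Tbx18 replicate 2 or GFP replicate 3 was left out, 2 receptors were lower; 2 glycosylation genes were lower without GFP replicate 3, and without either of these Tbx18 libraries 2 were higher and 1 lower.

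**Figure D5:**
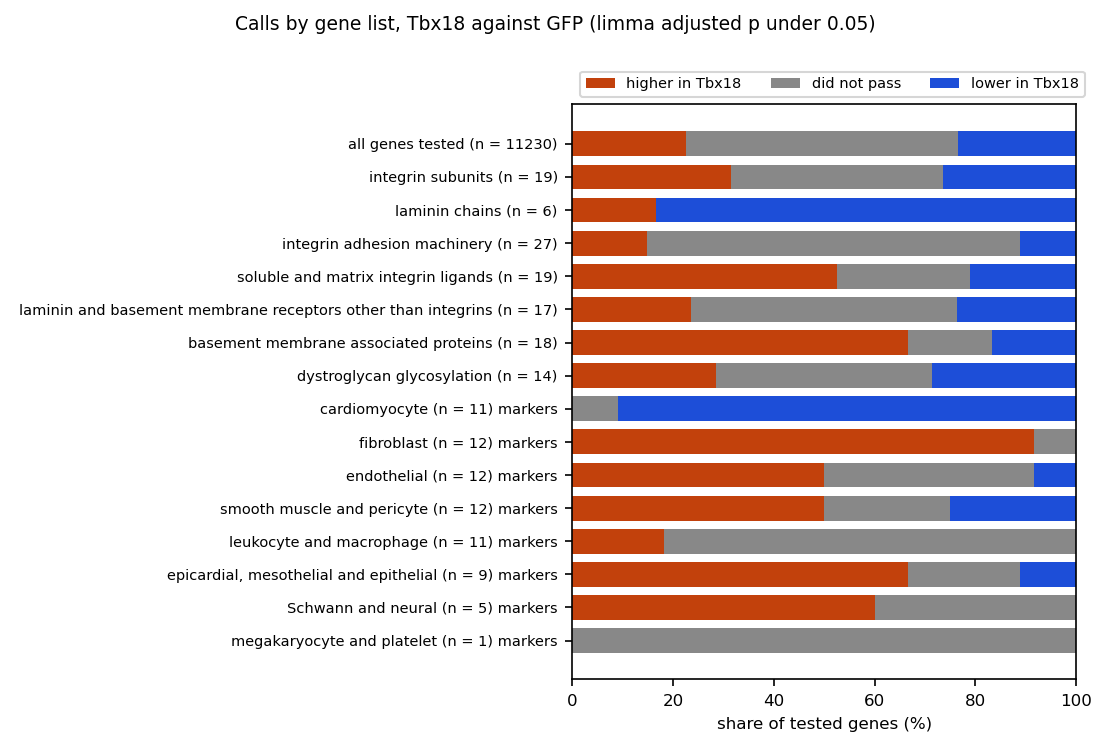
Share of tested genes in each list that were higher in Tbx18, did not pass the test or were lower in Tbx18, with all 11230 genes in the top row. Of the laminin chains 5 of 6 were lower, of the basement membrane associated proteins 12 of 18 were higher, and the adhesion machinery holds the widest share that did not pass among the companion lists.

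Scaling bears on all these directions together. The deposited totals differed between groups, at 17273631 to 17494656 in Tbx18 and 20141912 to 21563080 in GFP. When libraries were set to equal recovered reads, the median over all genes moved up to 0.27 on the log2 scale, beside 0.005 as deposited, and 4792 genes were higher and 1351 lower, where 2525 and 2639 had been. Under that scaling Itga5, Itga6, Itgad, Itgb1 and the laminin chains Lama5, Lamb3 and Lamc1 were still called lower, by log2 fold changes that ran from -0.88 for Lamc1 to -0.24 for Itgb1, and the 10 genes called higher stayed so. Without Tbx18 replicate 1, 7 of the 33 genes were called lower in place of 12, 3 of them integrin subunits in place of 5, and with any library left out the 10 called higher were the same genes.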

How the data were processed

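The authors deposited a signal that is, per the file headers, a table of DESeq2-normalized counts. Tools listed in the submitters' processing notes, with no roles, are DESeq2 1.10.1, HTSeq, STAR 2.4.0g1 and bcl2fastq 2.17.1.14. With annotation, build and strand setting unknown (not given in the sources used here), genes with close paralogs or overlapping neighbours are less certain. In every library 100% of values were whole multiples of the column's smallest step within 0.01, which gave back the reads; edgeR's quasi-likelihood test on these called 2505 genes higher and 2698 lower.

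Groups were compared with limma 3.58.1 (R 4.3.3, intensity trend, two-sided, no block) on log2(normalized count + 1), for genes with a mean of at least 10; the scale understates changes of low genes. The functions were tested on simulated counts with known changes. Alternatives were TMM, upper-quartile and equal-read scaling, pseudocounts of 10 and 0.5, no filter or a minimum mean of 50, DESeq2 1.42.0 and edgeR 4.0.16 run on the recovered counts, a replicate block and leaving out each library. Shares of chains per length were not computed, since no lengths of the counted transcripts were used here. Intervals cover counting error only. The genes, lists and the naming rule (every gene of the set; from companion lists the 3 largest calls and those against the rest) were chosen with earlier results of these data known. Some genes that enter the counts are not reported by name here.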

Additional observations from a re-analysis of the deposited data

How the results depend on the processing

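Of the 22 genes called, 17 kept their call and direction under all of the 16 alternatives in which they could be fitted; Itga1, Itgad, Itgb1bp1, Itgb1bp2 and Lamb2 lost it under some, and 0 reversed. With equal recovered reads 4792 genes were higher and 1351 lower, and among companion lists 11 adhesion machinery genes were higher, 1 ligand lower, 7 receptors higher and 1 lower, and 0 glycosylation genes lower; with upper-quartile scaling 2 ligands, 2 receptors and 2 glycosylation genes were lower. With a minimum mean of 50, 0 laminin chains were called higher, since Lama1 was not tested. With a library left out, 7 to 11 of the 33 genes were lower, 3 to 5 integrin subunits lower, 2 to 8 adhesion machinery genes higher, 1 to 5 ligands lower, 2 to 5 receptors lower, and 2 to 5 glycosylation genes higher and 1 to 3 lower. Signs that turned all belonged to genes that had not passed the test: with equal recovered reads Itga7 was at 0.080, Itgb5 at 0.10 and Itgb8 at 0.12, and with a library left out log2 fold changes ran for Itgae from -0.068 to 0.15, Itgal from -0.023 to 0.096, Itgam from -0.14 to 0.15, Itgb2 from -0.088 to 0.38, Itgb8 from -0.47 to 0.062 and Itgb3bp from -0.032 to 0.17. The causes were not tested. Whether same-numbered libraries belong together is not stated. The correlations of their deviations were -0.005, 0.151 and 0.016, and not every library correlated best with its own number. With the replicate block 10 of the genes were higher and 12 lower, as without it. The planned chain shares per length were not run. Low depth limits Itgb7, Lamc3, Lama1 and the GFP values of Itga10 and Itgb6.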
